A study of Mus musculus with 2 samples.

Results

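The genes described here carry the interleukin 4 (IL-4) signal in B cells, from the receptor through STAT6 to induced genes and the SOCS family of feedback inhibitors. They are 10 of the 23288 genes in the deposited tables, taken by name: Il4ra, Il2rg, Jak1, Jak3, Stat6, Socs1, Socs3, Cish, Fcer2a and Nfil3. The study compared 1 library from Nedd4-/- splenic B cells with 1 library from Nedd4+/+ splenic B cells. Both came from fetal liver chimeric mice, in which donor fetal liver supplies the blood cells, on a background labelled B6:129 and backcrossed to B6. All cells were grown for 72 hours with lipopolysaccharide (LPS), a bacterial product that activates B cells, and IL-4, a combination that drives class switch recombination to IgG1. No culture without IL-4 was analysed here, so every level below is one under IL-4. The Nedd4 protein is a HECT-type ubiquitin ligase. The labels give neither the deleted part of Nedd4 nor the age of the animals, nor whether cells of several mice were pooled.

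IL-4 binds a receptor of the IL-4 receptor alpha chain (Il4ra) and the common gamma chain (Il2rg), which carry the tyrosine kinases JAK1 and JAK3. The kinases phosphorylate the alpha chain and STAT6, a transcription factor that then dimerises and enters the nucleus, where it drives CD23 (Fcer2a) and the germline transcripts of the switch regions. Proteins of the SOCS family are induced by cytokines and act back on the receptors and kinases, in part by recruiting a ubiquitin ligase.

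Promoter windows of 2 feedback inhibitor genes, Cish and Socs3, hold the STAT family motif TTCNNNGAA. These genes lay at opposite ends of the members in the comparison below, and a link with the motif was not tested. RefSeq promoter windows (build GRCm38.p6, 250 bases before to 50 after a start) were found for all 10 genes, 12 windows in all since Fcer2a has 3 starts. The motif with 3 spacer bases was found in 2 of the 12 windows, those of Cish and Socs3, where 8.30% of all 32851 promoter windows held it. The motif with 4 spacer bases between TTC and GAA, a form that STAT6 is known to favour, was found in 1 of the windows of Fcer2a, and 6.95% of all windows held it. Both motifs read the same on either strand. The matching windows are shown from 250 bases before the start to 25 after it, in lower case with the matches in capitals.
Socs3, GRCm38.p6 chr11:117969342-117969616, minus strand: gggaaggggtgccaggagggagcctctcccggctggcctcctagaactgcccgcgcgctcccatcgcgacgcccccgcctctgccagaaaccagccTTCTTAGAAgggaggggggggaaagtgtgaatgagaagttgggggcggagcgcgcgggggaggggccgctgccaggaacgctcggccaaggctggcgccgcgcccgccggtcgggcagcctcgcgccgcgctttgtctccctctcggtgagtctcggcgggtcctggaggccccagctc
Cish, GRCm38.p6 chr9:107296409-107296683, plus strand: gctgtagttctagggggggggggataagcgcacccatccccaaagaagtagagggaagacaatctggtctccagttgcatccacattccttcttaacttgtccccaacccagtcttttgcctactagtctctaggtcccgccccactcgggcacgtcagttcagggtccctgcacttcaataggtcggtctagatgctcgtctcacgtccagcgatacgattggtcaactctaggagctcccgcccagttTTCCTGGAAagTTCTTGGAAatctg
Fcer2a, GRCm38.p6 chr8:3690837-3691111, minus strand: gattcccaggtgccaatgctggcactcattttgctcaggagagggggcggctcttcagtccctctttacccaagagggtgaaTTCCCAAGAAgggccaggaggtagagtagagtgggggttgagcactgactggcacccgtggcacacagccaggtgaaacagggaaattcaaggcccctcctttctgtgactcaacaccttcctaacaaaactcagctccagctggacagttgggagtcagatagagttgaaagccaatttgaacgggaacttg
The Socs3 match begins 154 bases before the start, and the 2 Cish matches begin at bases 1 and 12 of the transcript as RefSeq draws it. These starts are not those of the deposited transcripts in the reference annotation. The Cish start used here lies 633 bases downstream of that of the deposited transcript, and the Socs3 start 180 bases upstream. The Fcer2a match lies 168 bases before an internal start, 3314 bases downstream of the start of the deposited transcript in the reference annotation. A match describes these letters and is not a measured binding site.

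The libraries held 6.17 gigabases (Nedd4-/-) and 8.40 gigabases (Nedd4+/+) of reads of 101 nt, recovered from the steps of the deposited values. Levels are in RPKM, reads normalised to transcript length and to library size, and can therefore be set between genes. Nedd4 itself was at 1.95 RPKM in the Nedd4-/- library and 7.59 RPKM in the Nedd4+/+ library. Xist was at 0.0958 and 23.7 RPKM and the Y-linked gene Eif2s3y at 18.8 and 5.14 RPKM in the Nedd4-/- and Nedd4+/+ libraries, so the Nedd4+/+ library held both kinds of message. Sex-linked differences lie along the same contrast and cannot be told apart from genotype. The 8 B cell markers, among them Cd79b and Pax5, were all above 10 RPKM and summed to 1059 RPKM in the Nedd4-/- library and 1280 RPKM in the Nedd4+/+ library. Among 32 markers of T cells, mast cells and basophils, myeloid cells and natural killer cells, 1 reached 1 RPKM, the macrophage gene Emr1 at 1.01 RPKM in the Nedd4-/- library and 0.463 RPKM in the Nedd4+/+ library. The sum over each of these 4 lists of 8 genes was 1.54 to 3.89 RPKM in the Nedd4-/- library and 0.967 to 2.13 RPKM in the Nedd4+/+ library. All genes with a mean under 0.5 RPKM had medians of 0.244 and 0.117 RPKM in these libraries. A higher sum in the Nedd4-/- library is thus not particular to these markers. No group has a replicate, so no difference below could be checked against a spread between samples or tested. Intervals are exact 95% intervals of read pairs and cover counting error only.

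A log2 ratio is that of Nedd4-/- over Nedd4+/+ with 1 RPKM added to each level, which understates the difference of low genes. The median log2 ratio of the 9405 genes whose mean reached 1 RPKM was -0.31, and 7.32% of them were above 0. Annotated transcripts held 24.4% of the read bases in the Nedd4-/- library and 32.6% in the Nedd4+/+ library, and the part of this gap in the log2 ratios was not tested. Subtracting that median from a log2 ratio gives the relative value used below. All 10 members passed this minimum. Of them 1, Socs3, was at least 2-fold lower in the Nedd4-/- library, where 1.15% of all genes were, and 0 passed the rule as higher, where 0.138% of all genes were. Relative to the median 0 members passed the 2-fold rule in either direction, against 0.223% of all genes lower and 0.276% higher. The median log2 ratio of the members was -0.31, that of all genes, with 5 members above and 5 below it. Single members ran from -1.30 for Socs3 to 0.28 for Cish. The place of the members against all genes depends on the minimum level: with no minimum their median relative value was -0.34, and Il4ra (-0.32), Il2rg (-0.27) and Socs1 (-0.30) were below the median of all genes. As deposited, 8 were lower in the Nedd4-/- library and 2 higher, Cish and Fcer2a, but Il4ra, Il2rg, Jak1 and Socs1 were above 0 when the libraries were scaled to the same upper quartile or the same sum of RPKM. The 2-fold call of Socs3 ended with a pseudocount of 5 RPKM (-0.80) and with the same upper quartile (-0.95).

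**Figure D1:**
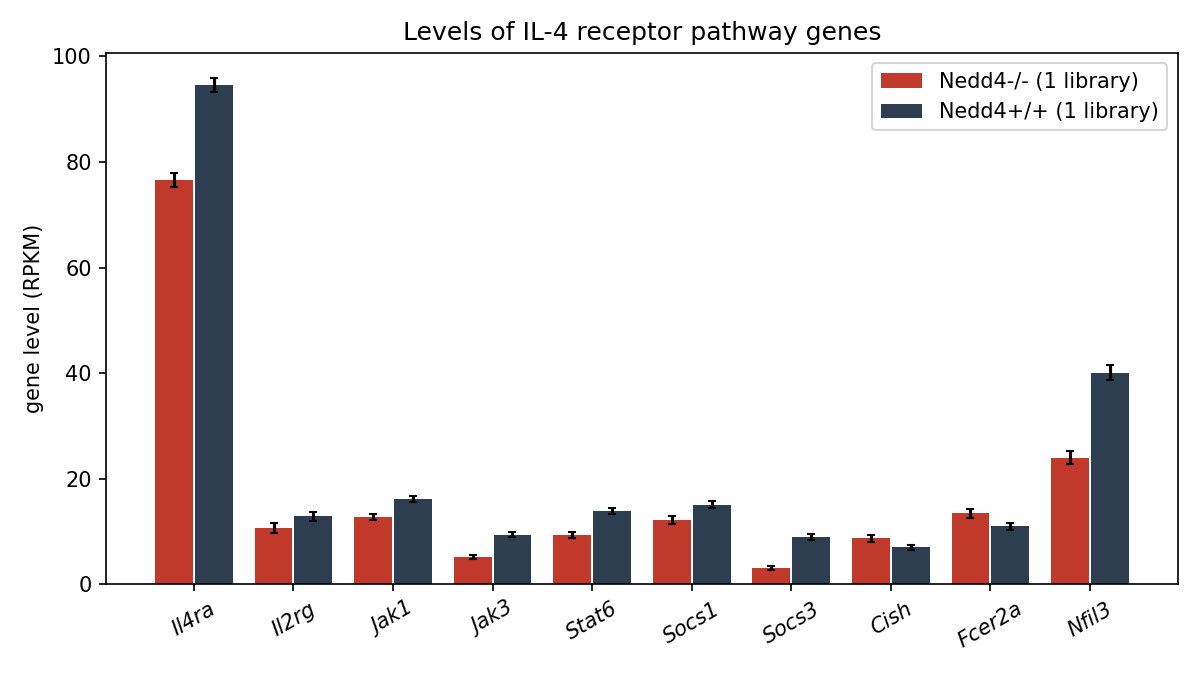
Gene level in RPKM of the 10 members in the Nedd4-/- library (left bar, red) and the Nedd4+/+ library (right bar, dark), 1 library each, with exact 95% Poisson intervals of the read pairs as error bars. Il4ra stands highest in both libraries (76.6 and 94.6 RPKM), Socs3 has the widest gap as a ratio (3.04 and 8.96 RPKM), and of the 10, as deposited, Cish and Fcer2a are higher in the Nedd4-/- library.

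The receptor chains were close to the median of all genes, and on the higher side among genes of their level. Il4ra, on chromosome 7, had a level of 76.6 RPKM in the Nedd4-/- library (12292 read pairs) and 94.6 RPKM in the Nedd4+/+ library (20664 read pairs), and ranked 180th and 202nd of all genes in them. Its log2 ratio was -0.30 and its relative value 0.01, with a counting interval of -0.34 to -0.27 without pseudocount. The median of all genes without pseudocount was -0.39, below that interval. A log2 ratio lower than that of Il4ra was found in 71.6% of the 342 genes of similar level. Il2rg, whose protein is shared by the receptors for IL-2, IL-4, IL-7, IL-9, IL-15 and IL-21, was at 10.6 and 12.9 RPKM in the Nedd4-/- and Nedd4+/+ libraries, with a log2 ratio of -0.25 and a relative value of 0.06. For Il2rg, 75.1% of the 3215 genes of similar level had a lower log2 ratio. Il2rg lies on the X chromosome, where the 282 genes tested had a median log2 ratio of -0.32. The alpha chain message exceeded the gamma chain message 7.20-fold in the Nedd4-/- library and 7.36-fold in the Nedd4+/+ library. This ratio within a library does not depend on how the libraries are scaled, and it differed by -0.03 on the log2 scale (counting SE 0.08).

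The kinase messages differed from each other. Jak1, whose product binds the alpha chain, was at 12.7 RPKM in the Nedd4-/- library and 16.2 RPKM in the Nedd4+/+ library, with a log2 ratio of -0.33 and a relative value of -0.02. A log2 ratio lower than that of Jak1 was found in 62.1% of the 2679 genes of similar level. Jak3, whose product binds the gamma chain, was at 5.22 RPKM in the Nedd4-/- library and 9.34 RPKM in the Nedd4+/+ library. Its log2 ratio was -0.73, its relative value -0.42 and its counting interval without pseudocount -0.98 to -0.71. Of the 4201 genes whose mean level lay within 2-fold of that of Jak3, 5.17% had a lower log2 ratio. Jak1 over Jak3 was 2.43 in the Nedd4-/- library and 1.73 in the Nedd4+/+ library, a difference of 0.49 on the log2 scale (counting SE 0.08). The span of Jak3 overlaps that of Insl3 in the reference annotation, which was at 1.33 and 2.37 RPKM in the Nedd4-/- and Nedd4+/+ libraries, and reads in the shared stretch cannot be told apart. Stat6 stood between the kinases in its difference, at 9.35 RPKM in the Nedd4-/- library and 13.9 RPKM in the Nedd4+/+ library, with a log2 ratio of -0.52 and a relative value of -0.21. Among the 3239 genes of similar level, 23.3% had a lower log2 ratio than Stat6. The span of Stat6 overlaps that of Nab2, at 1.62 and 2.36 RPKM.

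The 3 feedback inhibitors went separate ways. Socs1, a direct inhibitor of JAK kinases, was at 12.2 RPKM in the Nedd4-/- library and 15.1 RPKM in the Nedd4+/+ library, with a log2 ratio of -0.28 and a relative value of 0.03. A log2 ratio lower than that of Socs1 was found in 71.6% of the 2814 genes of similar level. Socs3, which acts mainly on receptors that signal through STAT3, was at 3.04 RPKM in the Nedd4-/- library (237 read pairs) and 8.96 RPKM in the Nedd4+/+ library (951 read pairs). Its log2 ratio was -1.30, its relative value -0.99, just short of the 2-fold rule, and its counting interval without pseudocount -1.77 to -1.35. Among the 4495 genes of similar level, 0.311% had a lower log2 ratio. Cish, an inhibitor induced through STAT5 and acting on IL-2 family receptors, was at 8.70 RPKM in the Nedd4-/- library (756 read pairs) and 7.01 RPKM in the Nedd4+/+ library (831 read pairs). Its log2 ratio was 0.28, its relative value 0.59 and its counting interval without pseudocount 0.17 to 0.45. Among the 4078 genes of similar level, 99.2% had a lower log2 ratio. In bulk RNA, fewer cells that express a gene and less RNA per cell cannot be told apart, for these genes and for the others.

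Within a library the balance of the inhibitors differed. Cish over Socs3 was 2.86 in the Nedd4-/- library and 0.783 in the Nedd4+/+ library, so the ratio was 3.66-fold higher in the Nedd4-/- library (1.87 on the log2 scale, counting SE 0.13). Socs1 over Socs3 was 4.03 and 1.68 in the Nedd4-/- and Nedd4+/+ libraries, 2.40-fold higher. Cish over Socs1 was 0.710 and 0.465, 1.53-fold higher. Socs3 was the lowest of the 10 members in the Nedd4-/- library and the next to lowest in the Nedd4+/+ library, where Cish was lowest.

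**Figure D2:**
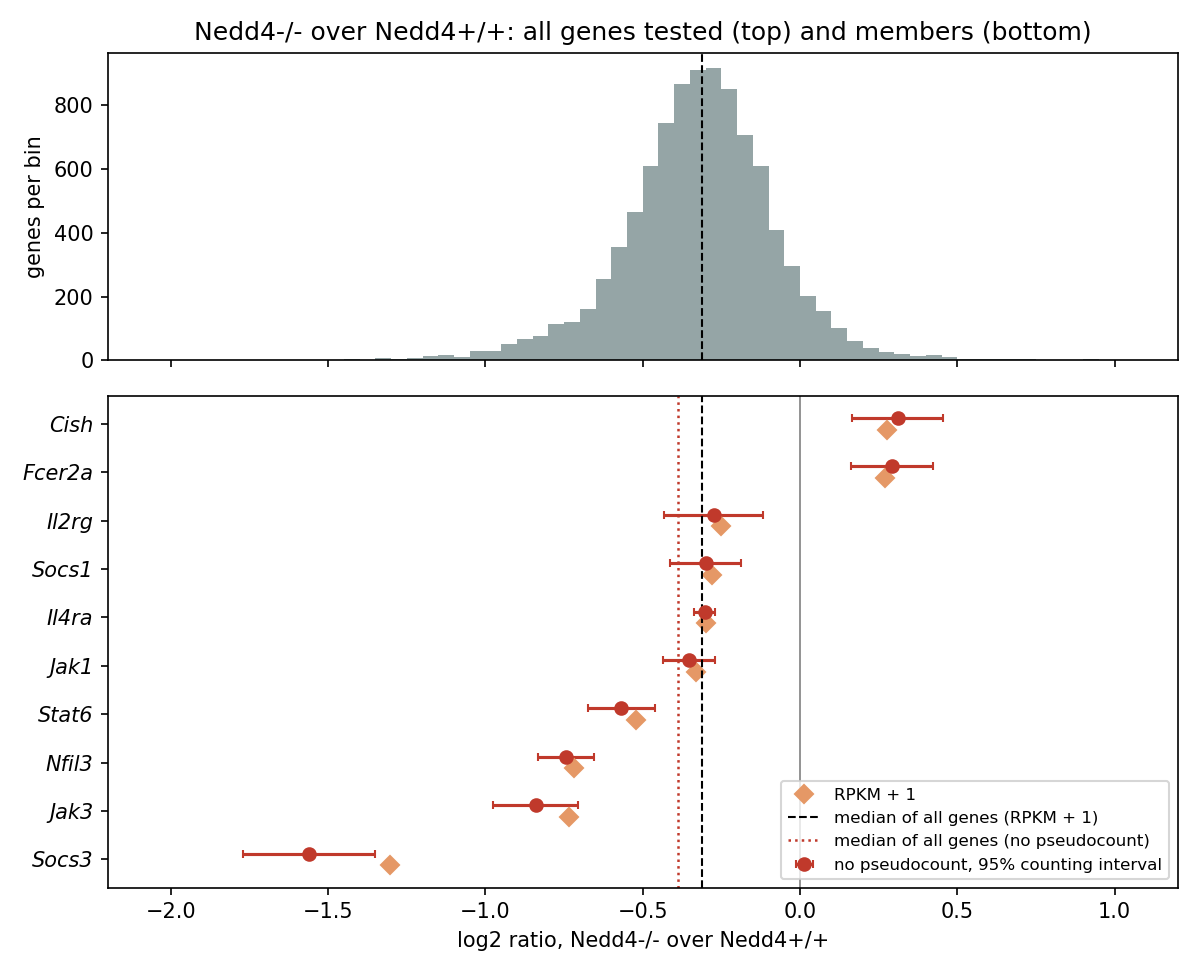
Number of genes per bin of log2 ratio over the 9405 genes tested (top) and the log2 ratio of each member (bottom), Nedd4-/- over Nedd4+/+. Diamonds have 1 RPKM added, and circles have no pseudocount and carry exact 95% counting intervals. The dashed and dotted lines mark the medians of all genes on these scales, -0.31 and -0.39. Socs3 lies far to the left, Jak3, Nfil3 and Stat6 left of the medians, Cish and Fcer2a to the right of 0, and the other 4 near the medians.

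The induced genes also parted. Fcer2a encodes CD23, the low-affinity IgE receptor, a surface protein of mature B cells that IL-4 raises. It was at 13.5 RPKM in the Nedd4-/- library (921 read pairs) and 11.0 RPKM in the Nedd4+/+ library (1024 read pairs). Its log2 ratio was 0.27, its relative value 0.58 and its counting interval without pseudocount 0.16 to 0.42, and 99.2% of the 3087 genes of similar level had a lower log2 ratio. The span of Fcer2a overlaps that of Trappc5, which was at 5.79 and 6.42 RPKM in the Nedd4-/- and Nedd4+/+ libraries. Nfil3, a basic leucine zipper factor that IL-4 induces in B cells, was at 24.0 RPKM in the Nedd4-/- library (1482 read pairs) and 40.1 RPKM in the Nedd4+/+ library (3379 read pairs). Its log2 ratio was -0.72, its relative value -0.41 and its counting interval without pseudocount -0.83 to -0.65. Among the 1171 genes of similar level 11.4% had a lower log2 ratio. Nfil3 over Fcer2a was 1.78 in the Nedd4-/- library and 3.65 in the Nedd4+/+ library, 0.488 times as high.

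The order of the levels was led in both libraries by Il4ra and then Nfil3. In the Nedd4-/- library Fcer2a, Jak1, Socs1, Il2rg, Stat6, Cish, Jak3 and Socs3 followed. Of these neighbours Fcer2a and Jak1, Jak1 and Socs1, and Stat6 and Cish did not differ beyond counting error. In the Nedd4+/+ library the order after Nfil3 was Jak1, Socs1, Stat6, Il2rg, Fcer2a, Jak3, Socs3 and Cish, where Stat6 and Il2rg, and Jak3 and Socs3, did not differ beyond counting error. Fcer2a thus took place 3 in the Nedd4-/- library and place 7 in the Nedd4+/+ library, and Cish places 8 and 10. Across all genes Socs3 ranked 5899th in the Nedd4-/- library and 3106th in the Nedd4+/+ library, Cish 2356th and 3941st, and Fcer2a 1462nd and 2542nd.

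Among the 4 genes nearest to Socs3 in level, by the distance of log2(RPKM + 1) over the 2 libraries among 4394 others whose mean reached 5 RPKM, were Ankrd37 (distance 0.11), Derl3 (0.13) and Myo1e (0.18). Ankrd37 was at 3.10 RPKM in the Nedd4-/- library and 8.26 RPKM in the Nedd4+/+ library. Likeness over 2 libraries describes levels only.

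Reads over the kb before each gene start were also counted in the same libraries. Across all 23288 genes the median upstream level was 0.267 RPKM in the Nedd4-/- library and 0.134 RPKM in the Nedd4+/+ library, so a member's difference is read beside that of other windows. With 0.1 RPKM added, 8 of the 10 member windows had the mean of 0.2 RPKM needed to be tested. Of them 0 passed the 2-fold rule as higher, where 19.8% of 11837 windows did, and 0 as lower, where 0.794% did. The median log2 ratio was 0.44 over the member windows and 0.41 over all windows. Relative to that median 0 member windows passed the 2-fold rule as higher, against 6.5% of all windows, and 1 passed as lower, Nfil3, against 5.68%. No other RefSeq gene overlaps the kb before the gene span of a member in the reference annotation (GRCm38). That kb can differ from the counted one, since starts differ between annotations, and a member's own exons were not looked for.

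The upstream windows of Nfil3 and Il4ra were the highest of the 10 and were lower in the Nedd4-/- library, where the median log2 ratio of all tested windows was above 0. Both have a mean of at least 1 RPKM, and among all such windows 38 were at least 2-fold lower and 10 higher. The median log2 ratio of those windows was itself below 0, so a lower level was not particular to these 2. Relative to it the Il4ra window was at -0.10, where it was at -0.80 relative to the median of all tested windows. The Nfil3 window was at 1.06 RPKM in the Nedd4-/- library and 1.68 RPKM in the Nedd4+/+ library, with a log2 ratio of -0.62 and a relative value of -1.03. Its counting interval without pseudocount, -1.33 to -0.06, was the only 1 of the 10 to exclude 0. It no longer passed the relative rule with 0.5 RPKM added (-0.70) or among windows with a mean of 1 RPKM (-0.34). The Il4ra window was at 1.10 RPKM in the Nedd4-/- library and 1.46 RPKM in the Nedd4+/+ library, with a log2 ratio of -0.38, with an interval of -1.05 to 0.23 that includes 0. The other 8 windows were higher in the Nedd4-/- library.

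Among the feedback inhibitors, the window of Socs1 was at 0.848 RPKM in the Nedd4-/- library and 0.4995 RPKM in the Nedd4+/+ library, that of Cish at 0.757 and 0.583 RPKM, and that of Socs3 at 0.589 and 0.488 RPKM. The gene level of Socs3 was lower in the Nedd4-/- library and the level of its upstream kb was not: the window was higher by 0.101 RPKM, where genes of similar level had a median difference of 0.0944 RPKM. As a share of the gene level, the Socs3 window was 19.4% in the Nedd4-/- library and 5.44% in the Nedd4+/+ library. The share was also higher in the Nedd4-/- library for Jak1 (1.54% and 0.430%), Il2rg (1.25% and 0.417%), Jak3 (9.31% and 3.23%), Stat6 (4.53% and 1.56%) and Socs1 (6.92% and 3.31%), so a higher share was not particular to Socs3. It was closer between the libraries for Fcer2a (1.92% and 1.32%), Cish (8.71% and 8.31%), Nfil3 (4.41% and 4.18%) and Il4ra (1.43% and 1.55%). Relative to the median of all windows the Socs3 window was at -0.18 on the log2 scale. The Socs3 window held about 17.98 and 20.27 read pairs, and its log2 interval of -0.71 to 1.29 allows a difference either way. The cause of these differences was not tested.

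**Figure D3:**
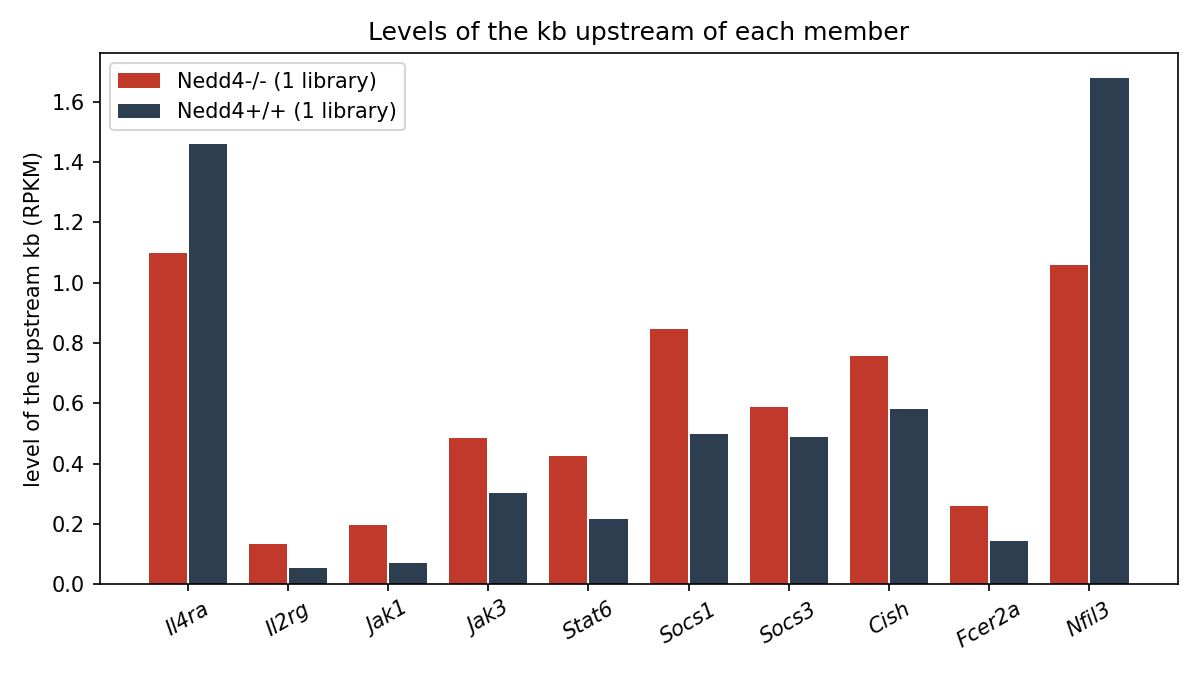
Level in RPKM of the kb upstream of each member in the Nedd4-/- library (left bar, red) and the Nedd4+/+ library (right bar, dark), 1 library each, with no error bars. The windows of Il4ra and Nfil3 are lower in the Nedd4-/- library (1.10 and 1.06 RPKM) than in the Nedd4+/+ library (1.46 and 1.68 RPKM), and the other 8 are higher.

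The windows of Stat6 and Jak3 were at 0.424 and 0.486 RPKM in the Nedd4-/- library and at 0.216 and 0.302 RPKM in the Nedd4+/+ library. The Fcer2a window was at 0.259 and 0.145 RPKM in the Nedd4-/- and Nedd4+/+ libraries, a difference of 0.114 RPKM where genes of similar level had a median difference of 0.0944 RPKM. The windows of Jak1, at 0.195 and 0.0695 RPKM, and Il2rg, at 0.133 and 0.0536 RPKM, were below the minimum. A single read pair gives 0.0328 RPKM in the Nedd4-/- library and 0.0241 RPKM in the Nedd4+/+ library, so these windows rest on a few pairs each.

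The wider pathway was read from 8 further lists of 59 genes, of which 46 reached a mean of 1 RPKM. None of the 46 passed the 2-fold rule in either direction, with or without the median subtracted, where the shares of all genes are those given above. Their median log2 ratio was -0.40, or -0.09 relative to all genes, with 17 above and 29 below.

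Ligand and receptor genes came first in the pathway. Il4 was at 0.262 RPKM in the Nedd4-/- library and 0.0173 RPKM in the Nedd4+/+ library, and Il13 at 0.256 and 0.179 RPKM. The 12310 genes with a mean under 0.5 RPKM had medians of 0.244 and 0.117 RPKM in the Nedd4-/- and Nedd4+/+ libraries, so these values are near the level of silent genes. Of 8 other chains of the IL-4, IL-13 and common gamma chain receptors 4 were tested and had a median of -0.38 (log2). The highest was Il21r, which encodes the IL-21 receptor, with 21.9 RPKM in the Nedd4-/- library and 31.1 RPKM in the Nedd4+/+ library (-0.49). Il2ra, the IL-2 receptor alpha chain, was at 2.03 and 4.09 RPKM (-0.75), Il2rb at 0.995 and 1.41 RPKM (-0.27), and Il15ra at 1.33 and 1.23 RPKM (0.07). Il13ra1, the other known partner of the IL-4 receptor alpha chain, was at 0.300 and 0.345 RPKM, so the gamma chain was the partner with the higher message in both libraries.

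The other kinases and transcription factors of the family were all expressed, 8 of 8 tested, with a median log2 ratio of -0.48. Stat4 was at 7.35 RPKM in the Nedd4-/- library and 13.7 RPKM in the Nedd4+/+ library (-0.82), Stat3 at 13.7 and 21.8 RPKM (-0.64), and Jak2 at 4.51 and 5.33 RPKM (-0.20). Of 5 other SOCS genes 4 were tested, with a median of -0.24 and 3 above the median of all genes. Socs2, a regulator of growth hormone signalling, was the most abundant SOCS message, at 35.9 RPKM in the Nedd4-/- library and 47.3 RPKM in the Nedd4+/+ library (-0.39). Socs4 was at 5.42 and 5.82 RPKM (-0.09), Socs6 at 2.45 and 3.08 RPKM (-0.24) and Socs7 at 2.41 and 3.04 RPKM (-0.24). Thus none of the 4 was as far from the median as Socs3 or Cish.

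Other brakes on the kinases, the phosphatases and PIAS proteins, gave 8 tested genes of 9 with a median log2 ratio of -0.42, 7 of them below the median of all genes. Ptprc, the CD45 phosphatase of all white blood cells, was at 30.7 RPKM in the Nedd4-/- library and 51.1 RPKM in the Nedd4+/+ library (-0.72), Pias4 at 3.02 and 5.38 RPKM (-0.67), Ptpn11 at 6.15 and 8.11 RPKM (-0.35) and Pias1 at 3.19 and 3.78 RPKM (-0.19). The insulin receptor substrate and PI3 kinase arm, through which the alpha chain also signals, gave 7 tested genes of 8 with a median of -0.44. Pik3cd, the leukocyte catalytic subunit, was at 13.2 RPKM in the Nedd4-/- library and 20.4 RPKM in the Nedd4+/+ library (-0.59), Pik3r1 at 3.90 and 5.97 RPKM (-0.51), Grb2 at 9.09 and 11.4 RPKM (-0.30), and Inpp5d, the phosphatase SHIP1, at 24.2 and 28.2 RPKM (-0.21).

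Other genes that IL-4 induces in B cells spread to both sides, as Fcer2a and Nfil3 did. Of 11 genes 10 were tested and had a median of -0.20 (log2), with 6 of them above and 4 below the median of all genes. Ccl22, a chemokine, was at 7.46 RPKM in the Nedd4-/- library and 5.87 RPKM in the Nedd4+/+ library (0.30), and H2-Aa, an MHC class II chain, at 377 and 353 RPKM (0.09). At the other end, Xbp1, a factor of the secretory program, was at 83.8 and 132 RPKM (-0.64) and Cd86, a costimulatory ligand, at 7.19 and 11.6 RPKM (-0.62). All cells also received LPS, so a response of these genes to IL-4 alone cannot be read from these libraries.

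Cytokines and receptors upstream of STAT3 were the list with the lowest median, -0.66 over 5 tested genes of 8, all 5 below the median of all genes. Il6 was at 2.64 RPKM in the Nedd4-/- library and 5.34 RPKM in the Nedd4+/+ library (-0.80), Il10ra at 2.15 and 4.22 RPKM (-0.73), Il10 at 1.26 and 2.25 RPKM (-0.52) and Il10rb at 3.06 and 4.80 RPKM (-0.52). The list was drawn up with the lower levels of Il6 and Socs3 already known and is no independent evidence of a direction. Il6ra, at 1.03 RPKM in the Nedd4-/- library and 0.692 RPKM in the Nedd4+/+ library, had a mean below the minimum.

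**Figure D4:**
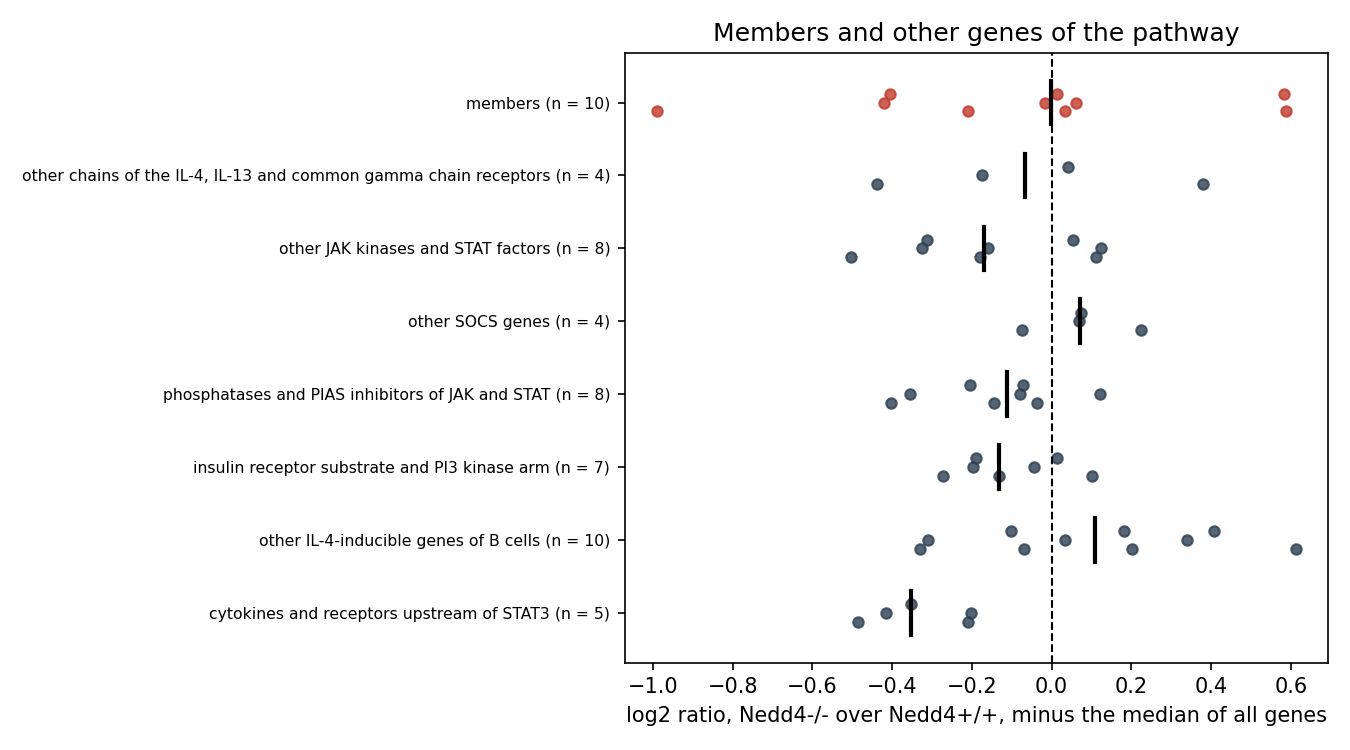
Relative log2 ratio (Nedd4-/- over Nedd4+/+, minus the median of all genes) of each tested gene, with the members in the top row (red) and 7 further lists below (dark). Each point is a gene and each vertical bar the median of its list. The members span -0.99 to 0.59, with their median at the dashed line. The 5 tested genes of the list upstream of STAT3 lie left of that line. This list was drawn up with the lower levels of Il6 and Socs3 already known.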

How the data were processed

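RNA depleted of ribosomal RNA was sequenced from 1 Nedd4-/- and 1 Nedd4+/+ library, grouped by the genotype label. Per the submitters' processing notes, TopHat and Cufflinks were used with build mm9, versions not given. Strand use and counting settings: not given in the sources used here. The deposited gene values are RPKM, per the file headers, for 1 RefSeq transcript a line, and no gene name had a second line (0 repeats). The second deposited column is a ratio, as its values show: the level of the upstream kb divided by the gene's RPKM plus 0.0001. It was multiplied back to a level. The product fell on whole read bases within 0.05 in 100% of 13436 low windows of the Nedd4-/- and 99.99% of 15459 of the Nedd4+/+ library. The design of this report had left its unit open, to be turned into a level if it was a ratio.

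Read pairs were computed as level times length over the value of a base, divided by 202 nt, with transcript lengths (97.1% of genes) from GENCODE M21, whose starts differ from RefSeq's for some genes, so pairs are approximate. With these lengths, the levels of 74.2% of 596 low genes of the Nedd4-/- library fell on whole read bases within 0.05. In the Nedd4+/+ library 66% of 1050 did. Counting intervals of ratios are exact Clopper-Pearson 95% intervals, and those of levels exact Poisson intervals. Both take pairs as independent, and no molecular identifiers were used. Python 3.11.15, numpy 2.4.6 and scipy 1.17.1 were used, and the steps were tested on simulated data. A gene was called at a 2-fold ratio on the RPKM + 1 scale where the mean reached 1 RPKM, a window with 0.1 RPKM added and a mean of 0.2 RPKM. No p-value was computed, for want of replicates. The members, lists and rules were chosen with earlier results of these data known. Named are all members, Nedd4, the 2 highest and 2 lowest tested genes of each list and the 4 genes nearest to the member furthest from the median. Some genes that this rule names are not reported here. Il4, Il13, Il13ra1, Il6ra, Xist, Eif2s3y and genes that overlap a member were added after their values were seen. Alternatives were other pseudocounts, minimum levels and scalings, and the upstream column as deposited. The planned comparison of SOCS proteins was not run.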

Additional observations from a re-analysis of the deposited data

How the results depend on the processing

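No paired analysis was possible because each genotype has 1 library, and for the same reason no library could be left out. Summing lines of 1 gene name gave no other value, since no name had several lines. Of the 6 gene alternatives only the 2 scalings can change the sign of a log2 ratio as such. Under both scalings Jak3, Stat6, Socs3 and Nfil3 stayed below 0 and Cish and Fcer2a above 0. Il4ra, Il2rg, Jak1 and Socs1 changed sign under both. Relative to the median, Il4ra, Il2rg and Socs1 were below 0 with no minimum and with a pseudocount of 5 RPKM, and Jak1 was above 0 under the other 4. Socs3 ranged from -1.53 to -0.80 (log2), Cish from 0.19 to 0.66. Over the members, 36 of 60 alternative gene values and 26 of 26 upstream values moved by less than their counting error. These counts include the alternatives that change only the minimum level, which cannot move a gene's or window's own log2 ratio. They therefore overstate how stable the values are, and the counting intervals of the windows are wide.

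The median of all genes was -0.18 with a pseudocount of 5 RPKM, 0.022 with no minimum, 0.036 with the same upper quartile and -0.022 with the same sum of RPKM. The members' median was 0.098 and 0.032 under these scalings, and -0.34 relative to all genes with no minimum. Members at least 2-fold lower were 0 with a pseudocount of 5 RPKM and with the same upper quartile, and relative to the median 1 (Socs3) with a pseudocount of 0.1 RPKM and with no minimum. Genes higher and lower were 25 and 229 with 0.1 RPKM, 5 and 27 with 5 RPKM, 28 and 16 with the same upper quartile, and 23 and 23 with the same sum, and 7 were higher with a minimum of 5 RPKM. The main counts were 13 and 108. Relative to the median they were 53 and 49 with 0.1 RPKM, 8 and 8 with 5 RPKM, 17 and 125 with no minimum, and 11 and 8 with a minimum of 5 RPKM, against 26 and 21.

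Windows higher and lower, 2343 and 94 in the main comparison, were 38 and 20 with 0.5 RPKM added and 10 and 38 with a minimum of 1 RPKM. With no minimum 4468 were higher, and in the column as deposited 2220 were lower. Relative to the median, 769 and 672 in the main comparison, they were 2 and 113 with 0.5 RPKM, 1159 and 1112 with no minimum, 24 and 6 with a minimum of 1 RPKM and 2722 and 2607 as deposited, and 1228 were higher with 0.05 RPKM. The Nfil3 window no longer passed as lower relative to the median with 0.5 RPKM or a minimum of 1 RPKM (0 member windows), and no member window was tested in the column as deposited (0). The cause was not tested. At this depth the interval of every member window except that of Nfil3 includes 0.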
